A study of Mus musculus with 86 samples.

Results

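The transcripts described here are 9 genes of the transforming growth factor beta (TGF-beta) pathway in mouse kidney, liver and lung: the ligands Tgfb1, Tgfb2 and Tgfb3, the receptors Tgfbr1 and Tgfbr2, the latency protein Ltbp1 and the direct targets Smad7, Skil and Tgfbi. They were found by symbol among the 38277 rows of each expression table of the inhibitor experiment and by Ensembl identifier among the 31054 genes of the count files of the knockout experiment, and all 9 were present in both. In the knockout experiment, kidneys came from mice labelled Mertk knockout (KO) or wild type (WT), after unilateral ureteral obstruction (UUO) or sham surgery, and livers from mice of both labels after bile duct ligation (BDL) or sham surgery. Each of these 8 groups had 4 libraries, and 1 library each of UUO WT and sham WT kidney was left out for the marker levels given below, so that 3 were used there. In the inhibitor experiment, mice were labelled wild type and received UNC569, a small-molecule inhibitor of MERTK kinase, or its vehicle DMSO. Kidney had 7 UUO UNC569, 4 UUO DMSO, 3 sham UNC569 and 3 sham DMSO libraries. Liver had 4 BDL UNC569, 6 BDL DMSO, 3 sham UNC569 and 3 sham DMSO libraries. Lung had 6 libraries after bleomycin (Bleo) with UNC569, 6 after bleomycin with DMSO, 3 sham UNC569 and 3 sham DMSO libraries. The labels used here give no strain, age, dose or day, and they do not say which part of Mertk was deleted or in which cells.

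TGF-beta ligands are made as precursors that stay bound to their own propeptide, and latent TGF-beta binding proteins such as LTBP1 tether that complex to the matrix until integrins or proteases release the ligand. Free ligand binds TGFBR2, which recruits and phosphorylates TGFBR1, and TGFBR1 phosphorylates SMAD proteins that enter the nucleus with SMAD4 and switch on targets. Smad7 and Skil encode feedback inhibitors of this signal, and Tgfbi encodes a secreted matrix protein named for its induction by TGF-beta. The pathway is known for driving fibroblasts to deposit collagen in scarred kidney, liver and lung, and macrophages that take up dying cells through MERTK are a known source of Tgfb1.

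The ligand promoters differ in base composition, and 4 promoters are printed because the ligands Tgfb1 and Tgfb2, the receptor Tgfbr2 and the target Tgfbi are the members the results turn on most. Each is the RefSeq window from 250 bases before to 50 bases after the transcription start on GRCm38.p6, read in the direction of the gene. Capitals mark the Smad box CAGAC or its reverse complement GTCTG, to which SMAD proteins bind.
Tgfb1, chr7:25686752-25687051, plus strand: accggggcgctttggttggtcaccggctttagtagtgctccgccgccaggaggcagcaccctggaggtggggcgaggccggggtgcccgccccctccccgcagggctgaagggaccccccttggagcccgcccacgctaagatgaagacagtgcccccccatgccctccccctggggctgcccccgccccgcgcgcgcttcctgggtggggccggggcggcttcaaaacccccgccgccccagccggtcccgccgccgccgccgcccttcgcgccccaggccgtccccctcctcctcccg
Tgfb2, chr1:186705940-186706239, minus strand: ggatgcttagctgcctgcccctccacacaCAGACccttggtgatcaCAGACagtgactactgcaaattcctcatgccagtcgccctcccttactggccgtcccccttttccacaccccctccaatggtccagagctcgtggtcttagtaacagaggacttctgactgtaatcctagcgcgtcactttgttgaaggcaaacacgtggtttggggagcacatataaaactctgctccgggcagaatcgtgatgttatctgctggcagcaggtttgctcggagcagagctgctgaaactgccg
Tgfbr2, chr9:116175314-116175613, minus strand: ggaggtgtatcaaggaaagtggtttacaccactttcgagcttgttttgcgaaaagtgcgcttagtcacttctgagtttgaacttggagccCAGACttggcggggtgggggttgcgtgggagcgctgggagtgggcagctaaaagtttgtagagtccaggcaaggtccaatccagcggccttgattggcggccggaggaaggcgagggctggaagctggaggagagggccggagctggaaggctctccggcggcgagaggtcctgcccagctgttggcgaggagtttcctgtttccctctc
Tgfbi, chr13:56609336-56609635, plus strand: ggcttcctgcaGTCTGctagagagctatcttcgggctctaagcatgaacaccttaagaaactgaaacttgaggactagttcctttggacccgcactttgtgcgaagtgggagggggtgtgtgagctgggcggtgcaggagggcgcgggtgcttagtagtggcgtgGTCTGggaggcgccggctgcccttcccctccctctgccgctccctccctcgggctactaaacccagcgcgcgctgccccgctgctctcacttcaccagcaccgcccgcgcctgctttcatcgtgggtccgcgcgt
The Tgfb1 window held 0 Smad boxes, 6 copies of the SP1 box GGGCGG or CCGCCC and 30 CpG dinucleotides, at a GC content of 77.0%. The Tgfb2 window held 2 Smad boxes, 0 SP1 boxes and 10 CpG dinucleotides, at a GC content of 54.3%. The Tgfbr2 window had 1 Smad box and the Tgfbi window had 2. Of the 32851 promoters of the same length, searched on both strands, 49.6% held a Smad box and 35.7% an SP1 box, and the median GC content was 52.7%. RefSeq windows matched 6 of the 9 genes, and the AP-1 motif TGACTCA or TGAGTCA, found in 5.2% of promoters, was in none of their 8 windows. These matches are letters in a window and say nothing of whether a factor was bound there.

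On GRCm38, Tgfb1 lies on chromosome 7 (25687002 to 25705077, plus strand), Tgfb2 on chromosome 1 (186622792 to 186705989, minus strand) and Tgfb3 on chromosome 12 (86056745 to 86079041, minus strand). Tgfbr1 lies on chromosome 4 (47353222 to 47414931, plus strand), Tgfbr2 on chromosome 9 (116084293 to 116175360, minus strand) and Ltbp1 on chromosome 17 (75005568 to 75392512, plus strand). Smad7 lies on chromosome 18 (75367529 to 75395935, plus strand), Skil on chromosome 3 (31095058 to 31122577, plus strand) and Tgfbi on chromosome 13 (56609523 to 56639562, plus strand). The library kit does not mark strand, so reads of a gene and of an antisense neighbour cannot be told apart. Exons of Gm29491 on the opposite strand cover 2.14% of the exon bases of Tgfb2, and those of Gm37804 and Gm48008 cover 4.82% and 7.60% of the exon bases of Tgfb3. No other member shared exon bases with an antisense gene in the annotation.

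Values of the knockout experiment are given as CPM, read counts scaled by library size and TMM factors, and the inhibitor experiment as the deposited FPKM, a value per gene length whose read depth is unknown. Reads in genes numbered 7.22 to 28.5 M per kidney library and 14.5 to 23.4 M per liver library. The summed level of 5 proximal tubule markers fell between 8915 and 19812 CPM in the sham kidneys used, 5 hepatocyte markers between 83942 and 105125 CPM in sham liver, and 4 alveolar type 2 markers between 2703 and 4293 FPKM in sham lung. The kidney library sham WT 1, left out, held 268683 CPM of hepatocyte and 25.2 CPM of proximal tubule markers, and UUO WT 1, also left out, held 26640 CPM of fibroblast and 28.4 CPM of proximal tubule markers. Among the libraries used, sham WT 3 stood apart with 6822 CPM over 7 fibroblast markers, against 164 to 364 CPM in the other sham kidneys, and 58.5% of its reads were unmapped. The library UUO WT 3 held 1614 CPM of these fibroblast markers, against 5431 to 13525 CPM in the other UUO kidneys. Leaving out both changed the call or moved the fold by over 1.5 times for Tgfb2, Tgfb3 and Skil in the WT response, whose values are given with and without them.

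The knockout label was checked first on Mertk itself (ENSMUSG00000014361). Mertk was at 52.7, 58.4, 63.0 and 44.5 CPM in UUO KO kidneys, against 51.1, 59.0 and 65.0 CPM in UUO WT kidneys. Sham KO kidneys had 81.1, 78.9, 83.5 and 59.6 CPM, against 79.6, 52.6 and 69.2 CPM in sham WT kidneys. In liver, Mertk was at 9.24, 17.6, 6.95 and 18.8 CPM after BDL in libraries labelled KO, against 21.3, 24.9, 28.3 and 28.4 CPM after BDL in WT. Sham liver had 20.5, 10.8, 13.4 and 18.3 CPM with the KO label, against 18.1, 10.5, 14.8 and 13.8 CPM in WT. The groups overlapped everywhere except after BDL, so the total count of Mertk did not separate the labels in kidney or sham liver, and reads outside a deleted part cannot check it. Libraries of the knockout experiment are therefore called by their label.

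In obstructed kidney most of the set was higher than after sham surgery in 3 of 4 comparisons, and 5 of 9 genes in WT kidney. Of the 9 genes, 8 rose in kidneys labelled KO, 5 in WT kidneys, 8 with UNC569 and 8 with DMSO, and none fell in any of these 4 comparisons (edgeR quasi-likelihood test for counts and limma for FPKM, each at a Benjamini-Hochberg adjusted p under 0.05 over all genes tested). Of all genes tested, 34.7% rose in UUO KO, 23.3% in UUO WT, 27.5% in UUO UNC569 and 29.7% in UUO DMSO kidneys. The median log2 fold change over the 9 genes was 2.23 in KO, 1.62 in WT, 1.22 with UNC569 and 1.94 with DMSO, where the median over all genes tested was 0.23, 0.16, -0.07 and 0.08. The values with UNC569 and DMSO are of FPKM + 1 and are not set against those of the counts. Tgfb2, counted among the 8 with UNC569 and the 8 with DMSO, passed the low-value filter only through UUO kidneys. In whole tissue, a change in the number of cells of a type and a change in RNA per cell cannot be told apart.

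Tgfb1, the ligand that macrophages and most injured tissues make, was at 117, 88.5, 99.8 and 65.7 CPM in UUO KO kidneys, against 20.5, 15.6, 17.02 and 26.003 CPM in sham KO kidneys. UUO WT kidneys had 152, 111 and 145 CPM, against 9.28, 18.02 and 29.6 CPM in sham WT kidneys. Every obstructed kidney lay above every sham kidney. Tgfb1 rose by 2.23 ± 0.30 on the log2 scale (SE; edgeR adjusted p = 2.98e-05) in KO, with means of 92.8 ± 21.5 CPM in 4 UUO and 19.8 ± 4.64 CPM in 4 sham libraries (SD), and by 2.84 ± 0.36 (edgeR adjusted p = 4.66e-05) in WT. In the inhibitor experiment, UUO UNC569 kidneys had 38.7 to 58.1 FPKM of Tgfb1, with a median of 41.9, against 11.6, 6.54 and 5.73 FPKM in sham UNC569 kidneys. UUO DMSO kidneys had 62.0, 76.4, 81.5 and 61.2 FPKM, against 7.51, 14.03 and 10.6 FPKM in sham DMSO kidneys. Again no obstructed kidney overlapped the shams, and the log2 fold changes were 2.46 ± 0.20 with UNC569 (limma adjusted p = 1.53e-08) and 2.63 ± 0.23 with DMSO (limma adjusted p = 4.82e-08).

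Tgfb2, the ligand with the lowest FPKM of the set in every kidney group, changed by the largest factor in kidneys labelled KO next to Tgfb3. It was at 31.3, 26.5, 39.4 and 28.3 CPM in UUO KO kidneys, against 1.64, 3.06, 2.01 and 1.89 CPM in sham KO kidneys. UUO WT kidneys had 19.8, 11.4 and 34.2 CPM, against 2.16, 17.7 and 2.31 CPM in sham WT kidneys. The sham WT library at 17.7 CPM is sham WT 3, the one rich in fibroblast markers, and the UUO WT library at 11.4 CPM is UUO WT 3, the one poor in them. Tgfb2 rose by 3.86 ± 0.60 in KO (edgeR adjusted p = 9.78e-05), and its WT log2 fold change of 1.62 ± 0.64 missed the threshold (edgeR adjusted p = 0.0583). Without both of these libraries, which were left out after the marker levels had been seen, the WT value was 3.48 (edgeR adjusted p = 2.55e-05). Without sham WT 3 alone it was 3.18 (edgeR adjusted p = 0.000117), without UUO WT 3 alone 1.94 (edgeR adjusted p = 0.0375), and DESeq2 on the same libraries gave an adjusted p of 0.0332. In the inhibitor experiment, Tgfb2 rose by 1.45 ± 0.36 with UNC569 (4.46 ± 3.40 FPKM in 7 UUO and 0.727 ± 0.149 FPKM in 3 sham libraries; limma adjusted p = 0.00213). It rose by 1.94 ± 0.40 with DMSO (5.47 ± 1.69 FPKM in 4 UUO and 0.642 ± 0.0494 FPKM in 3 sham libraries; limma adjusted p = 0.000528). These log2 fold changes are of FPKM + 1 and understate the change of a gene at so low a level. No sham kidney reached 1 FPKM of Tgfb2 (highest 0.889), while every UUO kidney did (lowest 1.71). Tgfb2 thus passed the filter of 1 FPKM in at least 3 libraries only through UUO kidneys. Its 2 limma p-values rest on the groups that admitted the gene, and no conclusion is drawn from them.

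Tgfb3, the ligand known from wound repair and palate closure, was at 49.1, 31.1, 50.7 and 17.1 CPM in UUO KO kidneys, against 1.94, 1.79, 2.01 and 3.56 CPM in sham KO kidneys. UUO WT kidneys had 64.8, 8.71 and 64.6 CPM, against 4.48, 7.56 and 2.72 CPM in sham WT kidneys. The lowest UUO WT library was again UUO WT 3 and the highest sham WT library sham WT 3, and they differed little from each other. Tgfb3 rose by 3.97 ± 0.59 in KO (edgeR adjusted p = 6.26e-05) and by 3.26 ± 0.66 in WT (edgeR adjusted p = 0.00156). Without these 2 libraries the WT value was 4.06 (edgeR adjusted p = 8.03e-05). With UNC569 it rose by 2.31 ± 0.36 (9.26 ± 5.49 FPKM in UUO and 0.825 ± 0.256 FPKM in sham; limma adjusted p = 2.59e-05). With DMSO it rose by 2.02 ± 0.40 (12.4 ± 1.03 FPKM in UUO and 2.40 ± 0.884 FPKM in sham; limma adjusted p = 0.000360). Among the UUO UNC569 kidneys, Tgfb3 ran from 3.00 to 17.6 FPKM, and the 2 lowest libraries, at 4.14 and 3.00 FPKM, were also lowest in Tgfb2 and Ltbp1. Fibroblast markers summed to 310.2 and 215.8 FPKM in these 2 libraries, against 540.1 to 959 FPKM in the other 5. The part of fibroblast content in the ligand values was not tested.

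**Figure D1:**
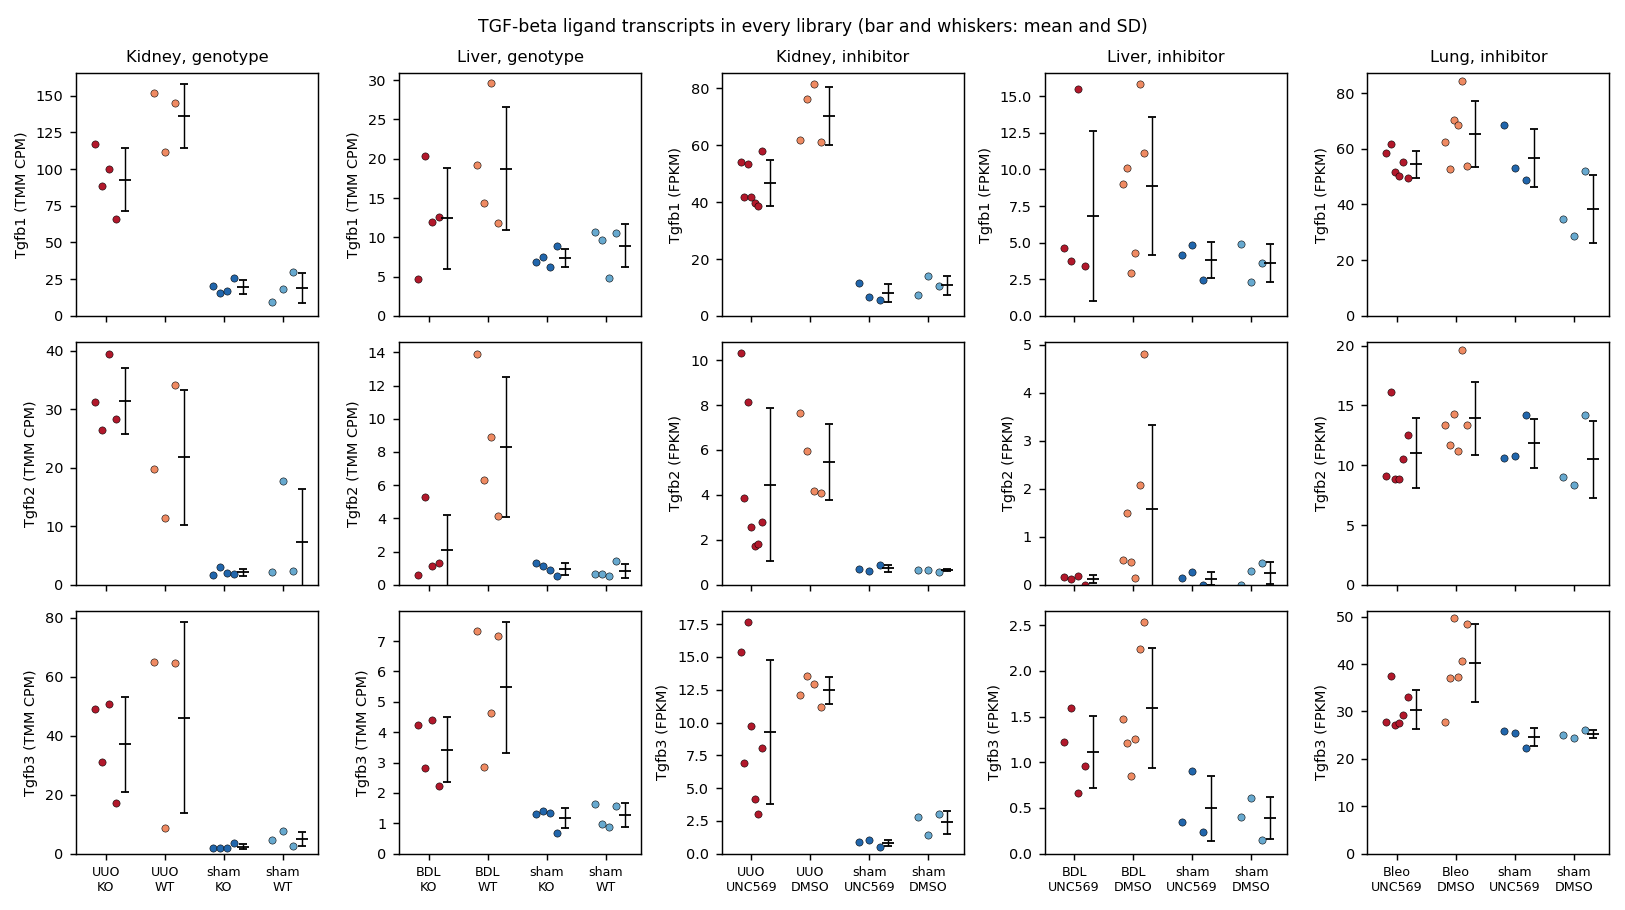
Levels of Tgfb1, Tgfb2 and Tgfb3 (rows) in every library of the 5 data sets (columns), in TMM-scaled CPM for the knockout experiment and FPKM for the inhibitor experiment. Points are libraries, and bars and whiskers are mean and SD, with whiskers below 0 cut at 0; Tgfb1 separated UUO from sham kidneys without overlap, while the single high sham WT kidney in the Tgfb2 panel is sham WT 3 at 17.7 CPM.

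The ligand-binding receptor Tgfbr2 rose in all 4 kidney comparisons. It was at 397, 432, 481 and 309 CPM in UUO KO kidneys, against 87.7, 93.0, 96.9 and 100.4 CPM in sham KO kidneys. UUO WT kidneys had 425, 204 and 386 CPM, against 101.3, 113 and 88.6 CPM in sham WT kidneys. The ranges did not overlap, and the log2 fold changes were 2.10 ± 0.22 in KO (edgeR adjusted p = 4.01e-06) and 1.74 ± 0.25 in WT (edgeR adjusted p = 0.000134), or 1.99 in WT without sham WT 3 and UUO WT 3. With DMSO, Tgfbr2 was at 79.6, 74.9, 78.3 and 72.5 FPKM after UUO, against 19.4, 16.9 and 20.5 FPKM after sham surgery, a log2 fold change of 1.96 ± 0.23 (limma adjusted p = 1.77e-06). With UNC569 the UUO values were lower and wider, 29.05 to 71.6 FPKM with a median of 50.2, and the sham values were 24.01, 29.1 and 27.9 FPKM. The log2 fold change with UNC569 was 0.82 ± 0.21 (limma adjusted p = 0.00285).

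Tgfbr1, the signalling receptor that phosphorylates SMADs, rose in UUO KO kidneys, at 173, 280.4, 235 and 207 CPM, against 79.7, 58.0, 66.9 and 55.2 CPM in sham KO kidneys (log2 fold change 1.79 ± 0.26, edgeR adjusted p = 5.06e-05). In UUO WT kidneys it was at 151, 107 and 172 CPM, against 127, 90.9 and 52.7 CPM in sham WT kidneys, and the groups overlapped. Its WT log2 fold change was 0.66 ± 0.29 (edgeR adjusted p = 0.0835), and it passed at 0.97 without sham WT 2 (edgeR adjusted p = 0.0181) and at 0.84 without UUO WT 3 (edgeR adjusted p = 0.0461). Tgfbr1 rose by 0.52 ± 0.19 with UNC569 (14.8 ± 3.52 FPKM in UUO and 9.86 ± 2.14 FPKM in sham; limma adjusted p = 0.0219). With DMSO it rose by 0.97 ± 0.21 (15.6 ± 1.82 FPKM in UUO and 7.50 ± 1.21 FPKM in sham; limma adjusted p = 0.000669). The UNC569 call was lost without sham UNC569 library 2, at a log2 fold change of 0.44 (limma adjusted p = 0.0990), and without sham UNC569 library 3.

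Ltbp1, which tethers latent ligand to the matrix, was at 59.0, 45.95, 92.7 and 67.8 CPM in UUO KO kidneys, against 9.92, 9.34, 5.13 and 26.003 CPM in sham KO kidneys, and rose by 2.39 ± 0.41 (edgeR adjusted p = 0.000218). It was at 56.1, 31.3 and 46.9 CPM in UUO WT kidneys, against 29.8, 27.8 and 17.9 CPM in sham WT kidneys, a log2 fold change of 0.83 ± 0.46 that missed the threshold (edgeR adjusted p = 0.164), and 1.01 without sham WT 3 and UUO WT 3 (edgeR adjusted p = 0.175). The UUO WT libraries all lay above the sham WT libraries. With UNC569 it rose by 1.22 ± 0.33 (9.23 ± 4.37 FPKM in UUO and 3.24 ± 1.79 FPKM in sham; limma adjusted p = 0.00393). With DMSO its log2 fold change was 0.57 ± 0.37 (7.79 ± 1.60 FPKM in UUO and 4.87 ± 0.771 FPKM in sham; limma adjusted p = 0.196).

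The 3 targets did not move together in obstructed kidney. Tgfbi, the matrix protein, was at 141, 161, 146 and 126 CPM in UUO KO kidneys, against 16.1, 13.3, 17.5 and 12.2 CPM in sham KO kidneys. UUO WT kidneys had 136, 94.4 and 198 CPM, against 7.84, 30.1 and 20.5 CPM in sham WT kidneys. No obstructed kidney overlapped a sham kidney, and Tgfbi rose by 3.28 ± 0.34 in KO (edgeR adjusted p = 3.60e-06) and by 2.89 ± 0.39 in WT (edgeR adjusted p = 7.48e-05). Skil, a corepressor that holds SMAD complexes inactive, rose by 2.00 ± 0.27 in KO (114, 162, 142 and 172 CPM in UUO, 42.6, 32.01, 32.6 and 39.5 CPM in sham; edgeR adjusted p = 2.60e-05). In WT, Skil was at 105, 56.3 and 92.9 CPM after UUO, against 74.5, 34.8 and 34.8 CPM after sham surgery, and its log2 fold change of 0.82 ± 0.30 passed narrowly (edgeR adjusted p = 0.0430). That call was lost under DESeq2 (adjusted p = 0.0670). It was also lost without sham WT 3 (0.54), sham WT 4 (0.58), UUO WT 2 (0.64) or UUO WT 4 (0.75). Leaving out UUO KO 2 or 3 or any 1 of the sham KO libraries, which belong to the same fit, lost it too, at values of 0.74 to 0.82. Without sham WT 3 and UUO WT 3 together the value was 0.76 (edgeR adjusted p = 0.0688).

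Smad7, the inhibitory SMAD that marks TGF-beta receptors for degradation, hardly differed. It was at 50.8, 42.8, 53.1 and 49.6 CPM in UUO KO kidneys, against 39.5, 41.1, 36.7 and 50.5 CPM in sham KO kidneys. UUO WT kidneys had 62.9, 33.3 and 48.3 CPM, against 42.8, 31.2 and 45.8 CPM in sham WT kidneys. The ranges overlapped in both, at log2 fold changes of 0.22 ± 0.19 in KO (edgeR adjusted p = 0.327) and 0.27 ± 0.22 in WT (edgeR adjusted p = 0.364). With UNC569 Smad7 was at 9.94 to 16.8 FPKM after UUO (median 13.0), against 19.6, 13.8 and 13.3 FPKM after sham surgery (log2 fold change -0.20 ± 0.17, limma adjusted p = 0.342). With DMSO it was at 18.8, 20.8, 20.9 and 13.6 FPKM after UUO, against 11.5, 11.5 and 13.9 FPKM after sham surgery, and rose by 0.54 ± 0.19 (limma adjusted p = 0.0248). That call was lost in 4 of the fits that left out 1 library. Tgfbi rose by 3.13 ± 0.18 with UNC569 (limma adjusted p = 2.89e-10) and by 1.94 ± 0.20 with DMSO (limma adjusted p = 3.55e-07), and Skil by 0.81 ± 0.19 (limma adjusted p = 0.00115) and 0.85 ± 0.21 (limma adjusted p = 0.00223).

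**Figure D2:**
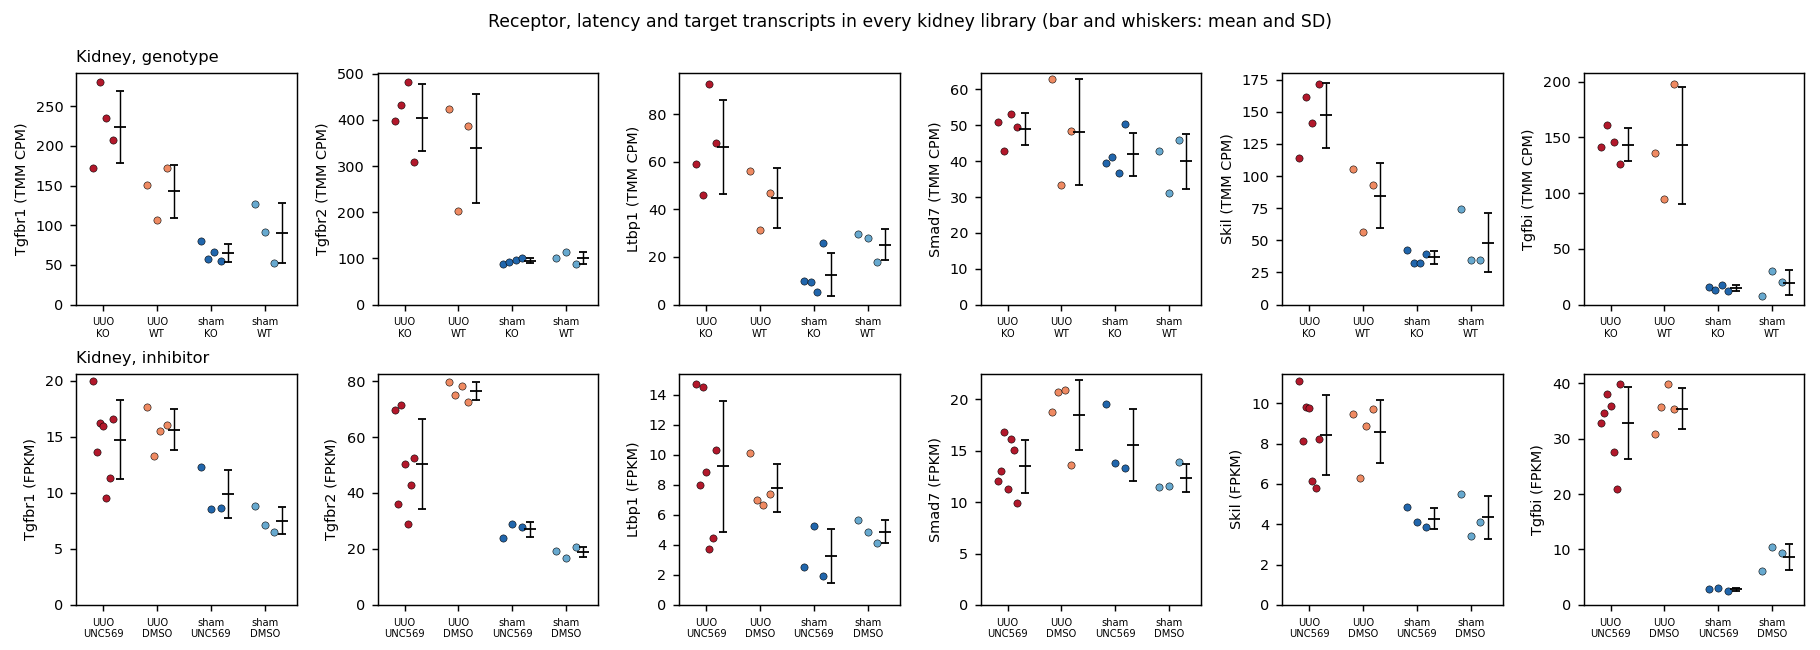
Levels of Tgfbr1, Tgfbr2, Ltbp1, Smad7, Skil and Tgfbi (columns) in every kidney library, in TMM-scaled CPM for the knockout experiment (top) and FPKM for the inhibitor experiment (bottom). Points are libraries, and bars and whiskers are mean and SD; Smad7 overlapped between UUO and sham in both labels, and Tgfbi was lower in the 3 sham UNC569 kidneys (2.51 to 2.96 FPKM) than in the 3 sham DMSO kidneys (6.07 to 10.5 FPKM).

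Macrophage and fibroblast marker transcripts were higher in the same kidneys. The sum over 6 macrophage markers was 577 to 1030.4 CPM in UUO KO kidneys, against 65.7 to 159 CPM in sham KO kidneys, and 584 to 1105 CPM in UUO WT kidneys, against 61.8 to 149 CPM in sham WT kidneys. The 7 fibroblast markers summed to 5431 to 11498 CPM in UUO KO kidneys, against 164 to 272 CPM in sham KO kidneys, and the 5 proximal tubule markers to 259 to 2260.1 CPM, against 11944 to 19812 CPM. Across these 14 kidneys, Tgfb1 and Tgfbi correlated at r = 0.948, Tgfbr2 and Tgfb3 at 0.964, and Tgfbr1 and Skil at 0.957, as a description over libraries that share the contrast between obstruction and sham surgery. The part of changed cell content in the member values was not tested.

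Other genes of the pathway, a list of 37, were higher in obstructed kidney in most cases. In KO 31 of 37 rose and 1 fell, and in WT 24 rose and 2 fell, with median log2 fold changes of 1.82 and 1.36. Over all genes tested, 34.7% rose in KO and 23.3% in WT, and 4002 and 2623 of 16395 fell. Ltbp2, a matrix protein of the latency family, had 157 ± 49.3 CPM in UUO KO and 0.659 ± 0.235 CPM in sham KO kidneys (SD, n = 4 each; log2 fold change 7.84 ± 0.60). In WT it had 123 ± 85.9 CPM in UUO WT and 0.917 ± 0.334 CPM in sham WT kidneys (n = 3 each; 7.14 ± 0.70, edgeR adjusted p = 1.02e-05). Nrros, which holds latent Tgfb1 on macrophages and microglia, rose by 2.92 ± 0.36 in WT (edgeR adjusted p = 4.00e-05). Collagen targets rose as well, with Col1a1 at 2623 ± 1231 CPM in UUO KO and 35.96 ± 8.23 CPM in sham KO kidneys (log2 fold change 6.19 ± 1.25, edgeR adjusted p = 0.000735). Fn1, the matrix glycoprotein fibronectin, rose by 5.74 ± 1.31 and Col1a2 by 5.43 ± 1.02 in KO (edgeR adjusted p = 0.00187 and 0.000427). Tagln, a smooth muscle and myofibroblast protein, rose by 2.90 ± 0.88 in WT (edgeR adjusted p = 0.0181, lost without sham WT 2, UUO WT 2 or UUO WT 4). Col1a1 and Col1a2 are also among the fibroblast markers. Of the 12 latency and activation genes, 9 rose and 1 fell in KO, and 8 rose and 1 fell in WT. The 1 fall in KO was Furin, the protease that cleaves the TGF-beta precursor (128 ± 42.9 CPM in UUO and 392 ± 24.9 CPM in sham; -1.62 ± 0.26, edgeR adjusted p = 0.000117). In WT the 2 falls over the whole list were Itgb8, an integrin subunit that releases the ligand (127 ± 14.04 CPM in UUO and 278 ± 148 CPM in sham; -1.13 ± 0.30, edgeR adjusted p = 0.00761) and Zfyve9, an adaptor that brings SMADs to the receptor (-0.75 ± 0.22, edgeR adjusted p = 0.0160, lost without sham WT 2). In the inhibitor experiment 27 of 37 rose and 5 fell with UNC569, and 27 rose and 2 fell with DMSO. Over all genes tested there, 27.5% rose with UNC569 and 29.7% with DMSO, and 5294 and 3957 of 15338 fell. Ltbp2 rose by 4.32 ± 0.21 with UNC569 and 4.94 ± 0.23 with DMSO, and Col1a1 by 4.53 ± 0.37 and 4.68 ± 0.41 (limma adjusted p of at most 5.23e-08). The falls with UNC569 included Furin (52.7 and 121 FPKM; -1.20 ± 0.16), the ubiquitin ligase Smurf2 (6.38 and 16.7 FPKM; -1.27 ± 0.15) and Itgb8 at 5.81 ± 1.18 FPKM in UUO and 20.9 ± 1.32 FPKM in sham kidneys (-1.70 ± 0.19, limma adjusted p = 4.46e-07), where the sham level itself was high.

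Between the labels KO and WT, no member passed in kidney. After UUO 0 of 9 passed with edgeR, where 0% of all genes did, and 2 of 9 had an unadjusted p under 0.05 beside 1902 of 16395 genes. Those were Skil, higher in all 4 UUO KO kidneys than in any UUO WT kidney (log2 fold change 0.80 ± 0.28, edgeR adjusted p = 0.430), and Tgfbr1, likewise higher in all 4 (0.65 ± 0.27, edgeR adjusted p = 0.430). Tgfb1 was lower, at -0.55 ± 0.31 (edgeR adjusted p = 0.452), and 3 of its 4 UUO KO libraries lay below every UUO WT library. DESeq2 called 0 of the 9 here. After sham surgery 0 of 9 passed, where 0.0061% of all genes did. Tgfb2 (-1.71 ± 0.62, edgeR adjusted p = 0.238) and Ltbp1 (-0.99 ± 0.43, edgeR adjusted p = 0.290) had an unadjusted p under 0.05, beside 2575 of 16395 genes. DESeq2 also called 0 of the 9 there. The Tgfb2 value in sham kidney passed without sham WT 4 (-2.03, edgeR adjusted p = 0.0265) but was -0.03 without sham WT 3 and UUO WT 3 (edgeR adjusted p = 0.982).

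The response to obstruction was also compared between the labels, in a test of the difference that uses the same libraries. None of the 9 passed with edgeR, where 0% of all genes did, and 4 of 9 had an unadjusted p under 0.05 beside 4466 of all genes. The KO response minus the WT response was 2.24 ± 0.85 for Tgfb2 (edgeR adjusted p = 0.122), 1.55 ± 0.60 for Ltbp1 (edgeR adjusted p = 0.128), 1.19 ± 0.40 for Skil (edgeR adjusted p = 0.102) and 1.12 ± 0.38 for Tgfbr1 (edgeR adjusted p = 0.106). DESeq2 called Tgfb2 (adjusted p = 0.0486) and Skil (adjusted p = 0.0498), and without sham WT 4 edgeR called Tgfb1 at -1.22, Tgfb2 at 2.55, Tgfbr1 at 1.32 and Skil at 1.31. DESeq2 also called many of all genes in this test, as counted in the last section. The share of all genes called without sham WT 4 is not given here. Neither set of calls is therefore read as particular to these genes. The Tgfb2 difference was 0.25 without sham WT 3 and UUO WT 3 (edgeR adjusted p = 0.760). None of the 37 other pathway genes passed between the labels in any of the 3 kidney tests with edgeR, and 3, 8 and 8 of them had an unadjusted p under 0.05 after UUO, after sham surgery and in the difference. DESeq2 called 0, then 4 lower, then 5 higher in these tests. Leaving out 1 library gave, with edgeR, 0 after UUO, up to 2 higher and 6 lower after sham surgery, and up to 8 higher and 2 lower in the difference.

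**Figure D3:**
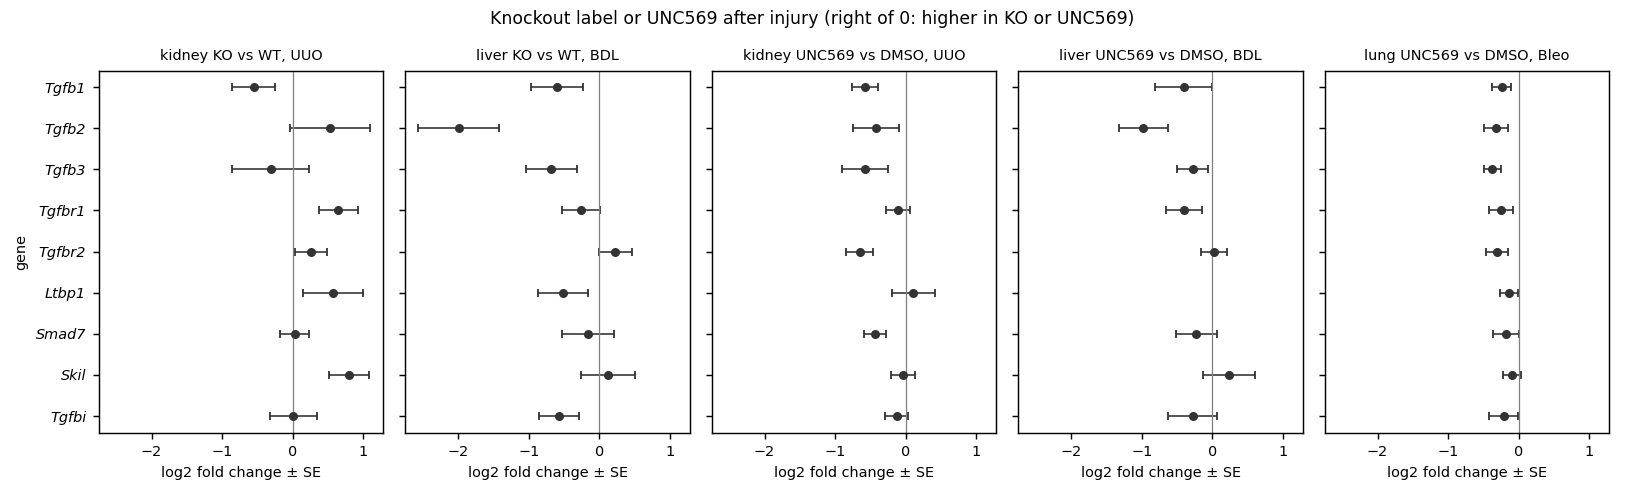
Log2 fold change of each gene after injury between the label KO and WT (kidney, liver) and between UNC569 and DMSO (kidney, liver, lung), with points for the estimate and whiskers for ± 1 SE; values right of 0 are higher in KO or with UNC569. No gene passed an adjusted p of 0.05 in these comparisons, Tgfb2 in liver lay farthest from 0 (-1.99 for KO and -0.98 for UNC569), and Ltbp1 was not tested in liver with UNC569. The UNC569 panels are of FPKM + 1, and Tgfb2 passed the filter in that liver experiment only through BDL DMSO libraries.

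UNC569 was compared with DMSO directly in obstructed kidney. Tgfb1 was at 54.3, 41.9, 53.5, 41.9, 39.6, 38.7 and 58.1 FPKM with UNC569, against 62.0, 76.4, 81.5 and 61.2 FPKM with DMSO. Tgfbr2 was at 69.7, 36.1, 71.6, 50.2, 29.05, 42.8 and 52.5 FPKM with UNC569, against 79.6, 74.9, 78.3 and 72.5 FPKM with DMSO. For both genes all 7 UNC569 kidneys lay below all 4 DMSO kidneys, and how many of all genes did so was not counted. The log2 fold changes were -0.58 ± 0.19 for Tgfb1 (limma adjusted p = 0.118), -0.65 ± 0.19 for Tgfbr2 (limma adjusted p = 0.0888) and -0.43 ± 0.16 for Smad7 (limma adjusted p = 0.163). So 0 of 9 passed with limma, where 1.3% of all genes did, and these 3 had an unadjusted p under 0.05, beside 2829 of 15338 genes. Tgfbr2 passed without UUO UNC569 library 1 (-0.74, limma adjusted p = 0.0481) or library 3 (-0.75, limma adjusted p = 0.0430). Macrophage markers summed to 1189 to 1618 FPKM in UUO UNC569 kidneys, against 1465 to 1982 FPKM in UUO DMSO kidneys, and the 7 fibroblast markers to 215.8 to 959 FPKM, against 684 to 935 FPKM. Sums that did not overlap were those of 4 neutrophil markers (22.2 to 49.1 FPKM with UNC569, against 7.82 to 16.8 FPKM with DMSO), 3 podocyte markers (36.2 to 66.1 FPKM, against 74.5 to 122 FPKM), 4 adipocyte markers (0.171 to 1.75 FPKM, against 2.84 to 27.5 FPKM) and 3 alveolar type 1 markers (7.46 to 12.3 FPKM, against 12.7 to 19.1 FPKM). The alveolar type 1 list was made for lung, so its sum does not stand for such cells in kidney. The part of the other marked cells in the member values was not tested.

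In sham kidney, Tgfbi was lower with UNC569, and it was the 1 member of 9 to pass, where 19.3% of all genes did. It was at 2.93, 2.96 and 2.51 FPKM in sham UNC569 kidneys, against 6.07, 10.5 and 9.41 FPKM in sham DMSO kidneys, and fell by 1.32 ± 0.21 on the log2 scale (limma adjusted p = 0.000980). The groups did not overlap for Tgfbi or Tgfbr2 (0.49 ± 0.25, limma adjusted p = 0.180), nor for Tgfb3 (0.925, 1.01 and 0.533 FPKM with UNC569, against 2.77, 1.39 and 3.04 FPKM with DMSO; -0.87 ± 0.43, limma adjusted p = 0.163). An unadjusted p under 0.05 was found for 1 member, beside 5133 of 15338 genes, and the share of all genes without overlap was not counted. The same sham kidneys differed in cell markers. Macrophage markers summed to 46.9 to 92.5 FPKM with UNC569, against 128 to 172 FPKM with DMSO, and 5 endothelial markers to 32.7 to 57.7 FPKM, against 107 to 120 FPKM. Fibroblast markers summed to 27.97 to 50.13 FPKM with UNC569, against 64.47 to 94.3 FPKM with DMSO. T cell markers summed to 0.806 to 0.993 FPKM, against 2.61 to 8.46 FPKM, and neutrophil markers to 0.134 to 0.956 FPKM, against 1.13 to 8.63 FPKM. Sums of the other cell types did not separate the groups. Among them, adipocyte sums were mostly higher with UNC569 (11.6 to 19.2 FPKM, against 0 to 11.8 FPKM). The part of these markers in the Tgfbi and Tgfb3 values was not tested.

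The response to obstruction differed between UNC569 and DMSO for 2 of the 9 genes, a share near the 19.6% of all genes that passed. The count is therefore not read as particular to these genes. The UNC569 response minus the DMSO response was -1.14 ± 0.32 for Tgfbr2 (limma adjusted p = 0.0187) and 1.19 ± 0.27 for Tgfbi (limma adjusted p = 0.00696). Both tests share their sham libraries with the comparisons above, and for Tgfbi it is the sham level, not the UUO level, that separates the groups: UUO kidneys had 32.8 ± 6.56 FPKM with UNC569 and 35.4 ± 3.72 FPKM with DMSO. The Tgfbr2 difference was lost without sham DMSO library 2 (-1.07, limma adjusted p = 0.0523). Smad7 had a difference of -0.73 ± 0.26 (limma adjusted p = 0.0555), and it passed without UUO DMSO library 4, UUO UNC569 library 3 or UUO UNC569 library 5. When FPKM was rescaled by median-of-ratios factors, the median of all genes moved from -0.13 to 0.03 in this test and from 0.07 to -0.05 in sham kidney. The split of higher against lower calls over all genes moved from 947 and 2053 to 1586 and 1367 in this test and from 2033 and 928 to 1221 and 1636 in sham kidney. The 3 member calls kept their side, at -1.45 for Tgfbi in sham kidney and -0.95 for Tgfbr2 and 1.35 for Tgfbi in the difference.

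Among the 37 other pathway genes, 5 were higher and 7 lower with UNC569 in sham kidney, where 19.3% of all genes passed, and 2 to 5 higher and 5 to 10 lower when 1 library was left out. Of the list, 0 passed after UUO with limma, where 13 had an unadjusted p under 0.05. The 6 with the smallest p in sham kidney included Itgb8 (20.9 ± 1.32 FPKM with UNC569 and 7.24 ± 2.86 FPKM with DMSO; 1.47 ± 0.22, limma adjusted p = 0.000593). They also included the endothelial co-receptor Eng (38.01 ± 14.9 FPKM with UNC569 and 124 ± 32.3 FPKM with DMSO; -1.73, limma adjusted p = 0.00186) and Ltbp4, another latency protein (25.1 and 57.0 FPKM; -1.17, limma adjusted p = 0.00160). The other 3 were Tgif1, a SMAD corepressor, at 0.76, Emilin1, which limits processing of the precursor, at -1.46, and the endothelial receptor Acvrl1 at -0.94. The response to obstruction differed for 7 of the 37, with 3 higher and 4 lower with UNC569, a share near the 19.6% of all genes that passed. Leaving out 1 library gave 1 to 6 higher and 3 to 4 lower, and the other scaling 6 higher and 3 lower. Among the 7 were Itgb8 at -1.55 (limma adjusted p = 0.00185), Itgb6 at 0.86 (limma adjusted p = 0.00217), Smurf2 at -1.07 (limma adjusted p = 0.00364) and the shared SMAD partner Smad4 at -1.37 (limma adjusted p = 0.00552).

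**Figure D4:**
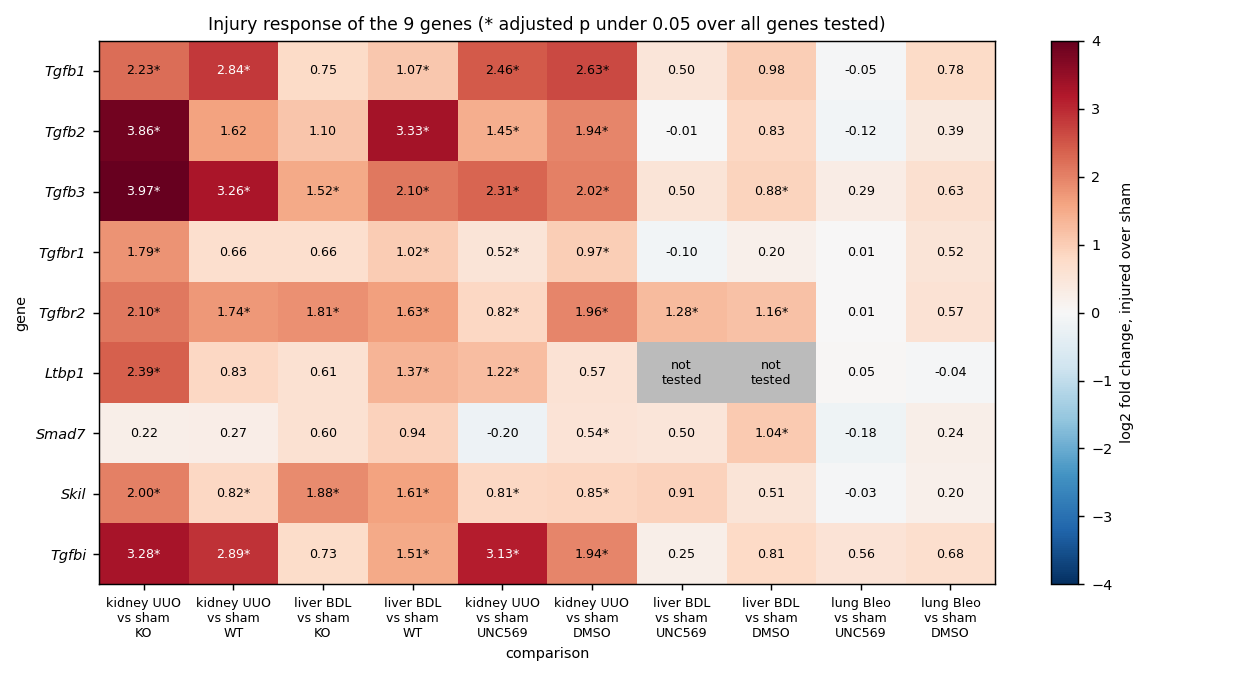
Injury response of the 9 genes (rows) in the 10 comparisons of injured with sham tissue (columns), as log2 fold change on a scale from blue (lower after injury) to red (higher), with an asterisk for an adjusted p under 0.05 over all genes tested. Kidney columns are red for 8 of the 9 genes, Smad7 stays near 0 in kidney apart from DMSO (0.54), and the lung columns hold no asterisk; Ltbp1 was not tested in the liver of the inhibitor experiment. Columns with UNC569 or DMSO are of FPKM + 1, so their sizes are not set against the KO and WT columns. In these columns Tgfb2 in kidney and liver and Tgfb3 in liver passed the low-value filter only through injured libraries.

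In ligated liver several members were higher than after sham surgery. After BDL 3 of 9 rose in KO and 8 of 9 in WT, and none fell, where 14% and 16.3% of all genes rose; the difference in response between the labels is tested below. The median log2 fold change over the 9 genes was 0.75 in KO and 1.51 in WT, and over all genes tested 0.07 and 0.03. The genes that passed in both were Tgfb3, Tgfbr2 and Skil. Tgfb3 was at 4.25, 2.82, 4.40 and 2.23 CPM in BDL KO livers, against 1.31, 1.39, 1.35 and 0.693 CPM in sham KO livers. BDL WT livers had 7.33, 2.84, 4.62 and 7.16 CPM, against 1.65, 0.963, 0.894 and 1.56 CPM in sham WT livers. No ligated liver overlapped the shams, and Tgfb3 rose by 1.52 ± 0.38 in KO (edgeR adjusted p = 0.00998) and by 2.10 ± 0.38 in WT (edgeR adjusted p = 0.00105).

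Tgfb2 was at 0.616, 5.26, 1.12 and 1.31 CPM in BDL KO livers, against 1.31, 1.15, 0.899 and 0.504 CPM in sham KO livers. BDL WT livers had 13.9, 6.34, 8.90 and 4.13 CPM, against 0.647, 0.642, 0.550 and 1.43 CPM in sham WT livers. All 4 BDL WT livers lay above the shams, while in KO a single library, BDL KO 2, stood apart. Tgfb2 rose by 3.33 ± 0.62 in WT (edgeR adjusted p = 0.00126), and its KO value was 1.10 ± 0.60 (edgeR adjusted p = 0.179). Tgfb1 was at 4.74, 20.4, 11.9 and 12.6 CPM in BDL KO livers, against 6.88, 7.46, 6.17 and 8.88 CPM in sham KO livers (log2 fold change 0.75 ± 0.38, edgeR adjusted p = 0.147). In BDL WT livers it was at 19.2, 14.4, 29.6 and 11.9 CPM, against 10.7, 9.63, 4.88 and 10.5 CPM in sham WT livers, and rose by 1.07 ± 0.37 (edgeR adjusted p = 0.0417). The Tgfb1 call in WT was lost in 10 of the fits that left out 1 library. In KO, Tgfb1 passed at 1.02 (edgeR adjusted p = 0.0396) without BDL KO 1, its lowest library.

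Of the receptors, Tgfbr2 was at 72.4, 91.4, 151 and 75.7 CPM in BDL KO livers, against 26.99, 30.8, 28.7 and 24.7 CPM in sham KO livers. BDL WT livers had 90.0, 72.2, 74.6 and 96.7 CPM, against 26.7, 33.95, 28.7 and 18.5 CPM in sham WT livers. It rose by 1.81 ± 0.24 in KO (edgeR adjusted p = 0.000168) and by 1.63 ± 0.24 in WT (edgeR adjusted p = 0.000231), with no overlap. Tgfbr1 rose by 1.02 ± 0.27 in WT (62.8 ± 17.96 CPM in BDL and 30.9 ± 4.77 CPM in sham; edgeR adjusted p = 0.0108). In KO it had 0.66 ± 0.27 (52.3 ± 24.7 CPM in BDL and 33.2 ± 4.66 CPM in sham; edgeR adjusted p = 0.0827), which passed without BDL KO 2 or BDL KO 4. Ltbp1 was low, at 2.83 to 5.75 CPM in BDL KO and 1.51 to 3.88 CPM in sham KO livers (0.61 ± 0.36, edgeR adjusted p = 0.221). In WT it rose, with 4.10 to 8.13 CPM in BDL WT and 1.56 to 3.14 CPM in sham WT livers (1.37 ± 0.37, edgeR adjusted p = 0.0114). The Ltbp1 call in WT was lost without the livers noted with a bad sequence file (edgeR adjusted p = 0.0939).

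Of the targets, Skil was at 94.7, 22.3, 58.7 and 24.8 CPM in BDL KO livers, against 12.9, 12.7, 12.0 and 16.8 CPM in sham KO livers, and rose by 1.88 ± 0.40 (edgeR adjusted p = 0.00411). In WT it rose by 1.61 ± 0.39 (31.7, 35.9, 41.6 and 74.4 CPM in BDL, 17.5, 17.7, 12.52 and 12.4 CPM in sham; edgeR adjusted p = 0.00691). Its 2 highest KO libraries, BDL KO 1 and BDL KO 3, are those whose description notes a bad sequence file. Without these 2 libraries the KO values were 0.80 for Skil (edgeR adjusted p = 0.0719) and 1.08 for Tgfb3 (edgeR adjusted p = 0.0998), and Tgfb1 at 1.17 (edgeR adjusted p = 0.0364) and Tgfbi at 1.00 (edgeR adjusted p = 0.00975) passed in their place. Tgfbi was at 22.5, 72.7, 58.3 and 49.5 CPM in BDL KO livers, against 28.4 to 32.8 CPM in sham KO livers (0.73 ± 0.28, edgeR adjusted p = 0.0652, and 0.0431 with DESeq2). It rose in WT, with 52.5, 65.8, 100.6 and 82.7 CPM in BDL WT livers, against 20.6 to 30.3 CPM in sham WT livers (1.51 ± 0.28, edgeR adjusted p = 0.00134). Smad7 had 0.60 ± 0.37 in KO (23.4 ± 11.0 CPM in BDL and 15.4 ± 6.12 CPM in sham; edgeR adjusted p = 0.242). Its WT value was 0.94 ± 0.37 (26.1 ± 9.12 CPM in BDL and 13.6 ± 4.69 CPM in sham; edgeR adjusted p = 0.0695), and DESeq2 called it in WT (adjusted p = 0.0481).

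Between the labels in ligated liver, Tgfb2 was the member with the largest difference. Its log2 fold change of KO over WT was -1.99 ± 0.57 (2.08 ± 2.14 CPM in BDL KO and 8.32 ± 4.21 CPM in BDL WT; edgeR adjusted p = 0.0553), and 3 of 4 BDL KO livers lay below all 4 BDL WT livers. It passed without BDL KO 2, at -3.02 (edgeR adjusted p = 0.00597), and with DESeq2 (adjusted p = 0.0106), and it was -1.33 (edgeR adjusted p = 0.256) without BDL KO 1 and BDL KO 3. So 0 of 9 passed with edgeR, where 4.39% of all genes did, and DESeq2 called 1. An unadjusted p under 0.05 was found for 1 member, beside 3601 of 13492 genes. Tgfbi had -0.57 ± 0.28 (edgeR adjusted p = 0.198) and Tgfb1 -0.60 ± 0.37 (edgeR adjusted p = 0.311). After sham surgery 0 of 9 passed, where 0% of all genes did, and none had an unadjusted p under 0.05. In the difference of response 0 of 9 passed, where 0% of all genes did. Beside 1952 of 13492 genes, 1 member had an unadjusted p under 0.05, Tgfb2 at -2.23 ± 0.84 (edgeR adjusted p = 0.272). Neither of these tests gained a member with DESeq2.

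In ligated liver the sums of cholangiocyte markers did not overlap between the labels, while those of macrophage, fibroblast and hepatocyte markers did. Macrophage markers summed to 76.6, 464, 263 and 166 CPM in BDL KO livers, against 437, 347, 656 and 344 CPM in BDL WT livers. Cholangiocyte markers, 4 genes, summed to 20.6, 50.3, 57.8 and 16.3 CPM in BDL KO livers, against 126, 61.9, 75.9 and 67.004 CPM in BDL WT livers. Fibroblast markers summed to 262 to 616 CPM in BDL KO livers, against 547 to 1799 CPM in BDL WT livers. Hepatocyte markers summed to 72006 to 114663 CPM in BDL KO livers, against 41585 to 73818.5 CPM in BDL WT livers. The sham livers had 98.2 to 140 CPM of the macrophage and 6.11 to 15.9 CPM of the cholangiocyte markers. BDL KO 1, the library with the lowest macrophage sum, also had the lowest Tgfb1, Tgfb2 and Tgfbi of its group. BDL KO 2, with the highest macrophage sum, had the highest of each, and the part of these cells in the member values was not tested.

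The other pathway genes in ligated liver gave 11 risen and 1 fallen of 35 tested in KO and 13 risen and 2 fallen in WT. Over all genes tested, 14% rose in KO and 16.3% in WT, and 1508 and 1724 of 13492 fell. The KO count was 7 to 13 risen when 1 library was left out, and 6 risen and 0 fallen without the livers noted with a bad sequence file. Thbs1, a matrix protein that can release TGF-beta from its propeptide, rose by 4.06 in KO (edgeR adjusted p = 0.00105) and by 4.68 ± 0.69 in WT (edgeR adjusted p = 0.000273). Itgb6, an epithelial integrin subunit that activates latent TGF-beta, was at 0.0616, 1.41, 0.0799 and 0.457 CPM in BDL KO livers and at 0 in all 4 sham KO livers. It rose by 5.05 ± 1.04 in WT, where its mean was 2.86 ± 1.45 CPM after BDL and 0.0783 CPM after sham surgery (edgeR adjusted p = 0.00365). At these levels Itgb6 can have passed the low-value filter only through ligated livers, chiefly BDL WT. Its p-value rests on the group that admitted the gene, and no conclusion is drawn from it. Ltbp4 fell in both, by 1.23 in KO (edgeR adjusted p = 0.00918, and 0.0739 without BDL KO 1 and BDL KO 3) and by 1.03 in WT (edgeR adjusted p = 0.0174, lost without sham WT 1, BDL WT 2 or BDL WT 4). Between the labels after BDL, 232 of all 13492 genes tested were lower in KO and 360 higher. Among the 35 of this list, 4 were lower and 1 higher. Those lower were Col1a2 (65.2 ± 22.8 CPM in KO and 197 ± 101.1 CPM in WT; -1.59, edgeR adjusted p = 0.0445), the integrin subunit Itgav (-1.08, edgeR adjusted p = 0.0370), the matrix protein Fbn1 (-1.47, edgeR adjusted p = 0.0394) and the feedback inhibitor Pmepa1 (-1.57, edgeR adjusted p = 0.0454). Furin was higher (0.96, edgeR adjusted p = 0.0384). Each of these 5 calls was lost in most fits that left out 1 library, among them those without BDL KO 1 and without BDL KO 3, and DESeq2 called 2 higher and 9 lower of the list. DESeq2 also called more of all genes here than edgeR, as counted in the last section.

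The liver of the inhibitor experiment was measured in FPKM, and its fold changes are of FPKM + 1, so they are not set against the counts above. After BDL, 1 of the 8 tested rose with UNC569 and 3 of 8 with DMSO, where 3.66% and 5.47% of all genes rose, and Ltbp1 was under the filter in every group (0.111 to 1.01 FPKM). Tgfbr2 rose in both. It was at 23.6, 25.2, 21.4 and 26.1 FPKM in BDL UNC569 livers, against 10.3, 9.22 and 8.55 FPKM in sham UNC569 livers (1.28 ± 0.22, limma adjusted p = 0.00189). BDL DMSO livers had 15.8 to 33.97 FPKM (median 23.3), against 8.23, 11.0 and 11.0 FPKM in sham DMSO livers (1.16 ± 0.20, limma adjusted p = 0.00158). Every ligated liver lay above the shams for Tgfbr2. With DMSO, Tgfb3 rose by 0.88 ± 0.24 (1.59 ± 0.653 FPKM in BDL and 0.391 ± 0.230 FPKM in sham; limma adjusted p = 0.0265) and Smad7 by 1.04 ± 0.32 (10.4 ± 5.12 FPKM in BDL and 4.26 ± 1.32 FPKM in sham; limma adjusted p = 0.0385). Both calls were lost without any 1 of the 3 sham DMSO libraries and without BDL DMSO library 6, and Tgfb3 also without BDL DMSO library 5 and Smad7 without BDL DMSO library 1. No sham liver reached 1 FPKM of Tgfb3 (highest 0.900), so Tgfb3 passed the low-value filter only through ligated livers. Its p-value rests on them, and no conclusion is drawn from it. With UNC569, Skil had 0.91 ± 0.44 (limma adjusted p = 0.224) and passed at 1.33 without BDL UNC569 library 3 (limma adjusted p = 0.0329). Under the other scaling the median of all genes with DMSO moved from -0.10 to 0.02, and the split of higher against lower calls over all genes from 710 and 1028 to 948 and 779.

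Tgfb1 was at 4.67, 3.74, 15.5 and 3.41 FPKM in BDL UNC569 livers, against 8.99, 10.1, 2.91, 4.30, 15.8 and 11.1 FPKM in BDL DMSO livers. Tgfb2 was at 0.167, 0.127 and 0.180 FPKM in 3 BDL UNC569 livers and listed at 0 in the fourth, against 0.516, 1.504, 0.467, 0.144, 2.07 and 4.81 FPKM in BDL DMSO livers. Tgfb1 overlapped widely, and for Tgfb2 2 of 4 UNC569 livers lay below all DMSO livers. The log2 fold changes were -0.41 ± 0.41 for Tgfb1 (limma adjusted p = 0.742) and -0.98 ± 0.35 for Tgfb2 (limma adjusted p = 0.301), and 0 of 8 members passed with limma, where 0.316% of all genes did. Tgfb2 was the 1 member with an unadjusted p under 0.05, beside 1454 of 12986 genes. It passed the filter of 1 FPKM in at least 3 libraries only through the BDL DMSO livers at 1.504, 2.07 and 4.81 FPKM. Its p-value thus rests on the group that admitted the gene, and no conclusion is drawn from it. Sham livers gave 0 of 8, where 0% of all genes passed, and the difference of response 0 of 8, where 0% did, with none at an unadjusted p under 0.05 in either. Macrophage markers summed to 306, 289, 707 and 315 FPKM in BDL UNC569 livers, with the 707 in the library that also held the highest Tgfb1 and Tgfbi, against 440 to 1038 FPKM in BDL DMSO livers. Of the 35 other pathway genes tested, 2 passed, both lower with UNC569 after BDL. Among them was Thbs1 (1.03, 1.45, 0.273 and 0.523 FPKM with UNC569, against 2.48 to 8.31 FPKM with DMSO; -1.65 ± 0.29, limma adjusted p = 0.0295). Its groups did not overlap, and the call was lost with a pseudocount of 0.1 (limma adjusted p = 0.0595), without the filter (limma adjusted p = 0.0686), and in 6 of the fits that left out 1 library.

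In lung, no member passed after bleomycin. With UNC569 0 of 9 rose, where 0.0188% of all genes did, and with DMSO 0 of 9, where 0.0251% did, so few genes passed in lung altogether. In these comparisons 1 and 5 of the 9 members had an unadjusted p under 0.05 in limma, beside 1687 and 3122 of 15935 genes. With DMSO, Tgfb1 ranged from 52.6 to 84.2 FPKM after bleomycin (median 65.4), against 34.7, 28.5 and 52.1 FPKM in sham DMSO lungs. Tgfb3 ranged from 27.8 to 49.8 FPKM (median 39.02), against 25.1, 24.4 and 26.1 FPKM. All 6 bleomycin lungs lay above all 3 sham lungs for Tgfb1, Tgfb3, Tgfbr1, Tgfbr2 and Tgfbi. How many of all genes separated these lungs in the same way was not counted. The log2 fold changes were 0.78 ± 0.17 for Tgfb1 (limma adjusted p = 0.0639), 0.63 ± 0.15 for Tgfb3 (limma adjusted p = 0.0740), 0.57 ± 0.19 for Tgfbr2 (limma adjusted p = 0.136), 0.68 ± 0.25 for Tgfbi (limma adjusted p = 0.155) and 0.52 ± 0.20 for Tgfbr1 (limma adjusted p = 0.180). With UNC569, Tgfb1 ranged from 49.5 to 61.6 FPKM after bleomycin (median 53.4), against 68.6, 53.1 and 48.9 FPKM in sham UNC569 lungs (-0.05 ± 0.17, limma adjusted p = 0.933). Tgfbi there had 0.56 ± 0.25 (29.1 ± 9.65 FPKM after bleomycin and 18.7 ± 1.82 FPKM after sham; limma adjusted p = 0.452), the smallest unadjusted p of the 9.

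The sham DMSO lungs were themselves uneven. Cardiac muscle markers summed to 830 and 816 FPKM in sham DMSO libraries 1 and 2 and to 15.9 FPKM in library 3, and 5 endothelial markers to 409, 417 and 838 FPKM. Cardiac markers summed to 6.05 to 363 FPKM in Bleo UNC569, 4.60 to 165 FPKM in Bleo DMSO, and 9.09, 638 and 26.03 FPKM in sham UNC569 lungs. The Tgfb1 log2 fold change with DMSO was 0.30 (limma adjusted p = 0.885) when sham DMSO 1 and 2 were left out, where a single sham library is assumed to vary like the other groups, and 0.59 (limma adjusted p = 0.313) with the cardiac markers as a covariate. The same 2 settings gave 0.58 and 0.70 for Tgfb3 (limma adjusted p = 0.866 and 0.293). Without sham DMSO 3, Bleo DMSO 1 or Bleo UNC569 2, Tgfb1 and Tgfb3 passed.

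Between UNC569 and DMSO in lung, 0 of 9 passed after bleomycin, after sham surgery and in the difference, where 0% of all genes did in each. In each, 1 member had an unadjusted p under 0.05, beside 843, 1206 and 1893 of 15935 genes. After bleomycin that was Tgfb3, at 27.7, 37.6, 27.2, 27.6, 29.2 and 33.1 FPKM with UNC569, against 27.8, 37.1, 49.8, 37.3, 40.7 and 48.5 FPKM with DMSO (-0.38 ± 0.12, limma adjusted p = 0.867), with 3 of 6 UNC569 lungs below all DMSO lungs. In sham lung it was Tgfb1 (0.58 ± 0.20, limma adjusted p = 0.612), and in the difference Tgfb1 (-0.83 ± 0.24, limma adjusted p = 0.321). Both Tgfb1 values rest on the sham lungs described above and passed without sham DMSO 3, at 0.82 (limma adjusted p = 0.0451) and -1.06 (limma adjusted p = 0.0229). Of the 36 other pathway genes tested, Thbs1 was the 1 that rose after bleomycin with DMSO (127 to 196 FPKM, against 37.98, 37.03 and 70.3 FPKM in sham; 1.66 ± 0.29, limma adjusted p = 0.0380). That call was lost in 9 of the fits that left out 1 library and with the cardiac covariate (1.26, limma adjusted p = 0.143), and 24 of the 36 had an unadjusted p under 0.05. Leaving out 1 library gave 0 to 10 risen and 0 to 2 fallen of the 36.

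**Figure D5:**
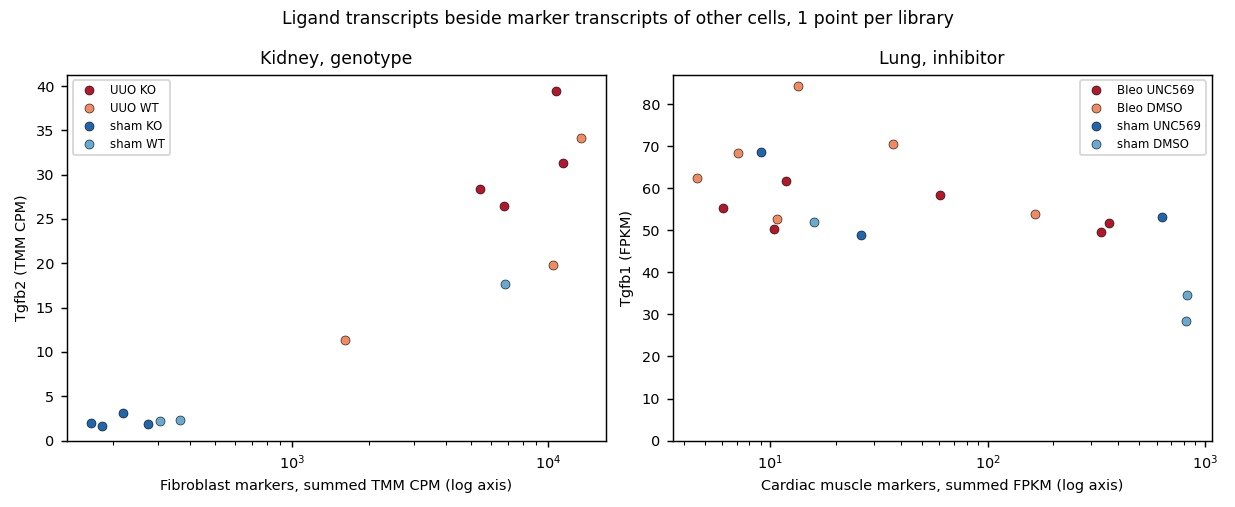
Left, Tgfb2 against the summed fibroblast markers in each kidney of the knockout experiment (TMM-scaled CPM); right, Tgfb1 against the summed cardiac muscle markers in each lung (FPKM); the horizontal axes are logarithmic and each point is a library. The sham WT kidney with 17.7 CPM of Tgfb2 lies among the UUO kidneys on the fibroblast axis (6822 CPM), and the 2 sham DMSO lungs lowest in Tgfb1 (34.7 and 28.5 FPKM) lie at the high end of the cardiac axis (830 and 816 FPKM).

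FPKM, a value per gene length, allows the genes to be ordered within a group. Tgfbr2 had the highest mean FPKM of the 9 in all 12 groups of the inhibitor experiment. In sham DMSO kidney it was 18.9 ± 1.87 FPKM, followed by Smad7 (12.3 ± 1.36), Tgfb1 (10.7 ± 3.26), Tgfbi (8.64 ± 2.29), Tgfbr1 (7.50 ± 1.21), Ltbp1 (4.87 ± 0.771), Skil (4.33 ± 1.07), Tgfb3 (2.40 ± 0.884) and Tgfb2 (0.642 ± 0.0494). Neighbours from Smad7 to Tgfbr1 and from Ltbp1 to Skil lay within their SDs, while Tgfb2 stood below the rest. In UUO DMSO kidney Tgfb1 (70.3 ± 10.2 FPKM) was next to Tgfbr2 (76.3 ± 3.21 FPKM), and their ranges overlapped. Sham DMSO liver had Tgfbr2 (10.1 ± 1.58 FPKM) and Tgfbr1 (9.92 ± 3.96 FPKM) at the top and Ltbp1, Tgfb3 and Tgfb2 under 1 FPKM. Sham DMSO lung had Tgfbr2 at 100.98 ± 18.7 FPKM and Tgfbr1 lowest at 9.66 ± 0.731 FPKM, with Tgfb3 at 25.2 ± 0.851 FPKM and Tgfb2 at 10.5 ± 3.22 FPKM.

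The genes most like each member were found by the mean Pearson r over the 5 data sets (81 libraries) among the 10831 genes that passed the filter in all 5. Tgfb1 was closest to Gnai2 (mean r 0.926), Lrrc33 (0.909) and Ppp1r9b (0.907), where Lrrc33 is the older symbol of Nrros, the tether of latent Tgfb1. Tgfb2 was closest to Fstl1 (0.883), Arl4c (0.871) and Vim (0.861), and Tgfb3 to Mmp2 (0.886), Sh3pxd2b (0.883) and C1qtnf6 (0.869). Tgfbr1 was closest to Adam10 (0.898), and Tgfbr2 to Rab31 (0.923) and Enc1 (0.918). Tgfbi was closest to Cyth4 (0.921) and Spp1 (0.905) and Skil to Sf3b3 (0.795), whereas the gene closest to Smad7, Myl12a, reached 0.631. Ltbp1 was under the filter in one liver table and was not ranked. These values are descriptions over libraries that share tissue, injury and cell content.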

How the data were processed

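Processed files of 83 libraries were used. Per the submitters' processing notes, the tools were FastQC, Trim Galore, STAR and edgeR, and the builds named include mm10; versions and other settings are not given in the sources used here. Per the labels' protocols, libraries were made with an unstranded poly(A) kit. For the knockout experiment the authors deposited read counts per gene and library, of which the totals over both strands were used here. Rows that name no gene were left out: they held 2.10% to 58.5% unmapped, 2.58% to 9.71% no-feature and 1.69% to 8.02% ambiguous reads. For the inhibitor experiment the authors deposited tables of FPKM, whose columns name a group but not a sample; kidney UUO UNC569 has 7 columns for 8 labelled samples and liver BDL UNC569 has 4 for 6, and libraries are numbered here by column.

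Counts were tested with edgeR 4.0.16 (quasi-likelihood F test, TMM factors, filterByExpr, 1 model per organ over all groups used) in R 4.3.3. FPKM were tested as log2(FPKM + 1) with limma 3.58.1 (trend), keeping genes at 1 FPKM or more in at least 3 libraries. Tests covered 16395 genes in kidney and 13492 in liver of the knockout experiment, and 15338 in kidney, 12986 in liver and 15935 in lung of the inhibitor experiment. P-values were adjusted by Benjamini-Hochberg over all genes of each of the 25 comparisons, with a threshold of 0.05. Differences of response are interaction contrasts. The scripts were tested on simulated data.

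Nothing in the labels says that replicates are separate animals, so p-values measure the spread between these libraries. Injury comparisons and comparisons of sham groups share their sham libraries. Where groups are said not to overlap, the share of all genes that do the same was not counted. The 9 genes, the 37 pathway genes and the marker lists were chosen with earlier results of these data known. The pathway genes named were the 4 largest rises and 4 largest falls past the threshold per injury comparison and the 6 smallest p-values in the others, and only part of them is printed; 1 counted gene is not reported here. Of the identifiers, 99.6% in the count files and 94.9% in the FPKM tables matched a gene name. Alternatives were DESeq2 1.42.0, RLE factors, no low-value filter, a replicate block, a pseudocount of 0.1, median-of-ratios scaling of FPKM, a cardiac covariate in lung, and sets of libraries left out or kept.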

Additional observations from a re-analysis of the deposited data

Results flagged for a closer look

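In 10 of the 108 combinations of a group of 4 to 10 libraries and a member, the highest or lowest library stood apart from the rest of its group; chance gives about 1 in 20. For Tgfb1 and Tgfbi both were the same liver library, BDL UNC569 3, with 15.5 FPKM of Tgfb1 (next 4.67 FPKM) and 13.7 FPKM of Tgfbi (next 6.96 FPKM), and its macrophage marker sum of 707 FPKM was the highest of its group. Tgfb2 stood apart in BDL KO 2 of liver at 5.26 CPM (next 1.31 CPM), in sham WT 4 of liver at 1.43 CPM (next 0.647 CPM) and in the lung library Bleo DMSO 5 at 19.7 FPKM (next 14.3 FPKM). Tgfb3 was highest in sham KO 4 of kidney at 3.56 CPM (next 2.01 CPM) and lowest in sham KO 4 of liver at 0.693 CPM (next 1.31 CPM). Tgfbr1 was highest in the liver library BDL DMSO 3 at 20.4 FPKM (next 11.3 FPKM) and in the lung library Bleo UNC569 2 at 20.2 FPKM (next 12.3 FPKM), and Skil was lowest in the lung library Bleo UNC569 6 at 9.64 FPKM (next 13.7 FPKM).

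The response to kidney obstruction differed between UNC569 and DMSO, by the test of that difference, for Tgfbr2 (-1.14 on the log2 scale, limma adjusted p = 0.0187) and for Tgfbi (1.19, limma adjusted p = 0.00696). Of all genes, 19.6% passed this test, a share near that of the 9 members. The Tgfbr2 call was lost without sham DMSO library 2 (-1.07, limma adjusted p = 0.0523). For Tgfbi the sham levels separate the groups. The sham kidneys also differed in macrophage markers (46.9 to 92.5 FPKM with UNC569, against 128 to 172 FPKM with DMSO). Endothelial markers (32.7 to 57.7 FPKM, against 107 to 120 FPKM) and fibroblast markers (27.97 to 50.13 FPKM, against 64.47 to 94.3 FPKM) differed as well. T cell and neutrophil markers were also lower with UNC569, without overlap. The part of these markers in the Tgfbi value was not tested.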

How the results depend on the processing

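No log2 fold change of a member that passed changed sign under any alternative run. Leaving out 1 library at a time gave 4 to 7 members called for UUO in WT kidney (5 with all libraries), 8 to 8 in KO, 7 to 8 with UNC569 and 7 to 8 with DMSO. For BDL it gave 3 to 5 in KO, 7 to 9 in WT, 1 to 2 with UNC569 and 1 to 3 with DMSO, and for bleomycin 0 to 0 with UNC569 and 0 to 3 with DMSO. Between KO and WT it gave 0 to 0 after UUO, 0 to 1 in sham kidney and 0 to 4 in the kidney difference of response, where the 4 came without sham WT 4, and 0 to 1 after BDL and 0 to 0 in sham liver and in the liver difference. Between UNC569 and DMSO it gave 0 to 1 in obstructed kidney, 1 to 1 in sham kidney, 1 to 3 in the kidney difference, 0 to 0 in all 3 liver tests and in lung after bleomycin, and 0 to 1 in sham lung and the lung difference. Shares of all genes called in the fits that left out 1 library are not given here. DESeq2 called 2 members in the kidney difference of response (0 with edgeR) and 1 in liver KO against WT after BDL (0 with edgeR), and the kidney difference also gave 2 without the libraries noted with a bad sequence file; the cause was not tested. Over all genes DESeq2 called 27 higher and 288 lower between KO and WT in sham kidney, against 1 and 0 with edgeR, and 1104 and 547 in the kidney difference, against 0 and 0. After BDL it called 1046 and 862 between KO and WT, against 360 and 232. All other alternatives left each count of members within 1.5 times its value, including the 2 added after seeing the data (kidney sham WT 3 and UUO WT 3 left out, lung sham DMSO 1 and 2 left out). Replicate numbers did not pair the libraries: same-numbered libraries correlated above 0.1 in 4 of 19 kidney and 5 of 24 liver pairs (-0.290 to 0.166 and -0.296 to 0.267). With the replicate block the counts were 5 for UUO in WT, 8 in KO, 8 for BDL in WT and 3 in KO. The depth behind FPKM is unknown, and Tgfb2 was near or at 0 FPKM in liver, so small differences there were not detectable.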
